A study of Mus musculus with 5 samples.

Results

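The 8 genes described here encode the enzymes and the transporter that keep ATP topped up in muscle. They are the creatine kinases Ckm, Ckmt2 and Ckb, the creatine transporter gene Slc6a8, the adenylate kinase gene Ak1, the AMP deaminase genes Ampd1 and Ampd3, and the adenylosuccinate synthase gene Adssl1. They were chosen by name, as genes of the energy buffer, and not by their values, though with earlier results of these data known. All 8 were found by symbol among the 35275 genes measured. All 8 were at 1 FPKM or more in each library (FPKM, fragments per kilobase of gene length, scaled to a common library total).

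RNA sequencing was done on gastrocnemius, a calf muscle made mostly of fast fibres, from female NSG mice aged 12 weeks. The strain is NOD scid gamma, which lacks mature lymphocytes, and the labels give the genotype as wild type. All the mice received the same treatment, 10 tail-vein injections, 2 per week over 5 weeks, of extracellular vesicles (about 10 µg each time) that came from MCF-10A/miR122 cells, and the muscle was taken 2 days after the last one. MCF-10A is a human mammary epithelial line that does not form tumours, and vesicles are small membrane particles that cells shed. The 5 libraries form 1 group, so that no condition could be compared with another here, and what follows is the level of each gene in treated muscle, the levels of the genes against each other within a library, and the spread between libraries. The labels number the samples without naming animals, so the spread and the p-values below are those between these samples, which may in part be technical.

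Creatine kinase moves a phosphate between ATP and creatine, so that phosphocreatine can refill ATP within moments of a contraction. Adenylate kinase makes ATP and AMP from a pair of ADP molecules. AMP deaminase removes that AMP as IMP, and adenylosuccinate synthase with adenylosuccinate lyase turns IMP back into AMP, a loop known as the purine nucleotide cycle. Fast glycolytic fibres are known for high levels of the cytosolic muscle creatine kinase, of adenylate kinase and of the muscle AMP deaminase, and oxidative fibres for the mitochondrial creatine kinase.

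The libraries held 16674504 to 25407988 reads. Markers of fast fibres were high in all 5, with the summed level of 9 fast genes at 48603 to 76203 FPKM against 1303 to 4365 FPKM for 8 slow genes. A pair of libraries stood apart. In library 2, all 8 slow fibre markers had their highest level, and the type IIB myosin gene Myh4 made up 50.6% of the summed FPKM of 6 myosin heavy chain genes, against 71.3% in library 3 and 84.6% to 87.4% in the others. In library 3, all 9 macrophage markers, 6 of 7 erythroid markers, all 6 smooth muscle markers (Des among them, which skeletal fibres also express), all 5 adipocyte markers and all 8 markers of embryonic and regenerating fibres had their highest level. Their summed levels were 359, 1029, 3051, 518 and 239 FPKM there and at most 121, 501, 1873, 365 and 97.1 FPKM elsewhere. No marker list had a gene at 0 in all 5 libraries. In whole muscle, fewer cells of a type and less RNA per cell cannot be told apart, and the part of these other cells and fibre types in the values below was not tested.

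The muscle creatine kinase gene Ckm stood far above the other 7 genes. Ckm (ENSMUSG00000030399, chromosome 7, 19404776 to 19422841, plus strand) was at 6517, 5048, 5723, 8404 and 6719 FPKM in libraries 1 to 5. It ranked 13 among all genes by its mean of 6482 ± 1263 FPKM (SD, n = 5). Its reads were 0.917% ± 0.179 of a library. Its level was highest in library 4 and lowest in libraries 2 and 3, and the highest was 1.66 times the lowest.

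The mitochondrial creatine kinase of sarcomeric muscle followed another order. Ckmt2 (ENSMUSG00000021622, chromosome 13, 91853387 to 91876885, minus strand) encodes the form that sits between the mitochondrial membranes and hands phosphate from new ATP to creatine. Its levels were 549, 748, 390.3, 448 and 442 FPKM in libraries 1 to 5, with a mean of 515 ± 142 FPKM (SD, n = 5). Library 2 was highest, and without it the ratio of the highest to the lowest library was 1.41 in place of 1.92. The same library had the highest summed slow fibre level, 4365 FPKM.

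Ckb encodes the brain-type cytosolic creatine kinase, found in many tissues and in developing muscle. Ckb (ENSMUSG00000001270, chromosome 12, 111669361 to 111672338, minus strand) was at 14.8, 18.4, 23.9, 12.9 and 11.1 FPKM in libraries 1 to 5, a mean of 16.2 ± 5.10 FPKM (SD, n = 5) from 415 to 589 reads. It was highest in library 3 and next in library 2, the libraries in which Ckm was lowest. The lists that were also highest in library 3 include smooth muscle, macrophage, adipocyte and Schwann cell markers, the last with a summed level of 187 FPKM against 86.6 to 128 FPKM, and their part in the level of Ckb was not tested. Without library 3 the highest library was 1.66 times the lowest, in place of 2.16 times.

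The 250 bases before the transcription start are shown for the 3 creatine kinase genes, because their levels took different orders over the libraries. The sequences are those of RefSeq on GRCm38.p6, which has a listed start for 6 of the 8 genes, and each reads 5′ to 3′ on the strand of the gene. Capitals mark E-boxes, CANNTG, the core to which myogenic factors of the MyoD family bind, and the letters TATAAA, a core form of the TATA box. The windows are chr7:19410844-19411093 (plus strand) for Ckm, chr13:91876886-91877135 (minus strand) for Ckmt2 and chr12:111672339-111672588 (minus strand) for Ckb.
Ckm: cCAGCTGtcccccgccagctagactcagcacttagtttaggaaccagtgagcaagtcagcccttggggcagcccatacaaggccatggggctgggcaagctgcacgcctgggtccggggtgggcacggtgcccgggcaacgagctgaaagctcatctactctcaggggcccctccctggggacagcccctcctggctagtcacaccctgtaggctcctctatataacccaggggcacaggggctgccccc
Ckmt2: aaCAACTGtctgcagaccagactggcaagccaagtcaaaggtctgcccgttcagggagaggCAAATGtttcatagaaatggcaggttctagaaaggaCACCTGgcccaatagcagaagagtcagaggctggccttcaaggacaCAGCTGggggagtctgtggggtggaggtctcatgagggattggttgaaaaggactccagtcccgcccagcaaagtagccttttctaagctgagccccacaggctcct
Ckb: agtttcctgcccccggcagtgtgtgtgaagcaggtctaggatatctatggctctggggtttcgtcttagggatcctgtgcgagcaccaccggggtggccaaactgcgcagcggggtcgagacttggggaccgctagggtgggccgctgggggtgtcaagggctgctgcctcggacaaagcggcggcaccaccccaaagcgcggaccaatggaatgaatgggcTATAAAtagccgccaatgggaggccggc
The Ckm window held 1 E-box, beginning 249 bases before the transcription start. The Ckmt2 window held 4, beginning 248, 189, 153 and 107 bases before the start. The Ckb window held no E-box and 1 TATAAA, beginning 28 bases before the start. Only these exact letters were searched, so a window without TATAAA may still hold another form of the TATA box. The Ckm window, for example, has the unmarked letters tatataa shortly before its end. E-boxes, which read CANNTG on both strands, were in 66.2% of 32851 RefSeq windows of the same length, and TATAAA on the strand of the gene in 7.59%. A MEF2 motif, searched on both strands, was in 2.92% of all windows and, among these 3, in that of Ckb, where it overlaps the TATA box. The letters CCAAT, searched on both strands and in 33.8% of all windows, occurred 2 times each in the windows of Ckb and Ckmt2, and GGGCGG, likewise in 32.7%, 1 time in that of Ckmt2. The Ckb window was richer in CpG dinucleotides, with 16, than those of Ckm, with 6, and Ckmt2, with 2, against a median of 6 over all windows. These are matches of letters, and no binding was measured here.

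The creatine transporter gene Slc6a8, whose product brings creatine into the fibre from the blood, had a narrow range. Slc6a8 (ENSMUSG00000019558, X chromosome, 73673150 to 73682502, plus strand) was at 43.8, 42.2, 34.4, 36.4 and 34.8 FPKM in libraries 1 to 5, with a mean of 38.3 ± 4.37 FPKM (SD, n = 5). Libraries 1 and 2 lay above the other three, and the highest library was 1.27 times the lowest.

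Ak1, the cytosolic adenylate kinase of muscle, had levels of 829, 663, 508, 762 and 701 FPKM in libraries 1 to 5. Ak1 (ENSMUSG00000026817, chromosome 2, 32621758 to 32635058, plus strand) had a mean of 693 ± 121 FPKM (SD, n = 5). Library 3 was lowest and library 2 next, and without library 3 the coefficient of variation (CV, the SD as a share of the mean) was 9.81% in place of 17.4%.

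Libraries 2 and 3 were the lowest for Ampd1 and the highest for Ampd3, both AMP deaminase genes. Ampd1, the isozyme of adult skeletal muscle (ENSMUSG00000070385, chromosome 3, 103074014 to 103099720, plus strand), was at 379, 228, 226, 361 and 359.8 FPKM in libraries 1 to 5, with a mean of 311 ± 77.1 FPKM (SD, n = 5). Libraries 2 and 3 lay together at the low end, apart from the other three. Ampd3, the isozyme known from red blood cells and from denervated muscle (ENSMUSG00000005686, chromosome 7, 110768206 to 110812405, plus strand), was at 5.50, 8.53, 8.97, 3.29 and 3.23 FPKM, with a mean of 5.90 ± 2.76 FPKM (SD, n = 5) from 321 to 647 reads. Here libraries 2 and 3 were the highest, and the highest library was 2.78 times the lowest, the widest range among the 8 genes. Without library 3 it was 2.64 times, and without library 2 it was 2.78 times. With libraries 2 and 3 both left out, a choice made after seeing the data, the ratio of highest to lowest was 1.70 for Ampd3 and 1.05 in place of 1.68 for Ampd1.

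Marker lists that touch Ampd3 moved in part with it. The summed erythroid level was 501 and 1029 FPKM in libraries 2 and 3 against 328 to 473 FPKM in the others, and the summed level of 8 denervation genes was 57.4 and 104 FPKM against 48.9 to 59.7 FPKM. Weighted equally, as the mean deviation from each gene's mean in log2(FPKM + 1), the denervation genes scored -0.08 in library 2 and 1.05 in library 3, against -0.34 to -0.32 in the others. On the same measure the erythroid genes scored 0.0 in library 2 and 0.84 in library 3, against -0.38 to -0.09 in the others. The -0.09 was that of library 5, where Ampd3 was lowest. What part either list had in the level of Ampd3 was not tested.

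Adssl1, the muscle form of adenylosuccinate synthase, which makes the first of the steps from IMP back to AMP, had the smallest spread of the 8 genes in FPKM as deposited. Adssl1 (ENSMUSG00000011148, chromosome 12, 112620045 to 112641360, plus strand) was at 669, 699.8, 613, 702 and 697 FPKM in libraries 1 to 5, with a mean of 676 ± 38.1 FPKM (SD, n = 5). Library 3 was lowest, and the highest library was 1.15 times the lowest. Its CV of 5.63% was 10.3% when libraries were scaled by median of ratios in place of their totals, and Slc6a8, at 9.93%, then had the smallest. Without library 3 the CV of Adssl1 was 2.25%.

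**Figure D1:**
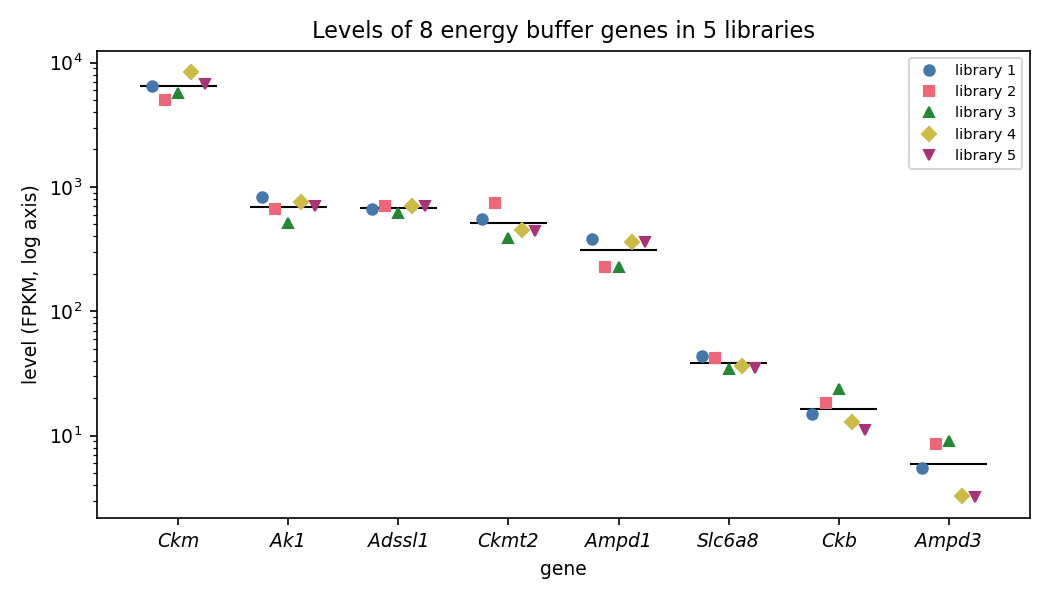
Level of each of the 8 genes in FPKM (vertical log axis) in libraries 1 to 5 (coloured symbols), with the mean over the 5 libraries as a black bar. Ckm lies near 6482 FPKM, Ak1, Adssl1, Ckmt2 and Ampd1 between 226 and 829 FPKM, Slc6a8 and Ckb between 11.1 and 43.8 FPKM, and Ampd3 below 9 FPKM.

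The order of the mean levels was Ckm, Ak1, Adssl1, Ckmt2, Ampd1, Slc6a8, Ckb and Ampd3. Of the 7 neighbours in this order, 5 kept it in all 5 libraries with ranges that did not overlap. Ak1 and Adssl1 did not differ beyond their spread, with Ak1 the higher in 3 of 5 libraries. Adssl1 exceeded Ckmt2 in 4 of 5 libraries, and Ckmt2 was the higher in library 2. FPKM depends on the gene length behind it, and the lengths found in the values were shorter than the merged exons of the annotation for 7 of the 8 genes. With merged exon lengths, an alternative chosen after seeing the data, the mean of Ckm was 3149 FPKM, that of Ckb 8.27 FPKM, and Adssl1 (597 FPKM) stood above Ak1 (557 FPKM).

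Set against each gene's own mean, the 3 genes known from fast fibres shared their low libraries. Ckm deviated by -0.34 and -0.16 in libraries 2 and 3 on the log2(FPKM + 1) scale, Ak1 by -0.04 and -0.43, and Ampd1 by -0.41 and -0.42. Each of the 3 lay above its mean in libraries 1, 4 and 5, but Ckm in library 1 by only 0.03. With libraries scaled by median of ratios, Ckm was at 6359 FPKM in library 1, below its mean of 6567 FPKM. Ckb deviated by 0.22 and 0.58 and Ampd3 by 0.56 and 0.63 in libraries 2 and 3, and both were lowest in libraries 4 and 5. Ckmt2 was split, at 0.58 in library 2 and -0.36 in library 3. Adssl1 and Slc6a8 were also lowest in library 3, at -0.14 each, and lay at 0.05 and 0.14 in library 2. A low level in library 3 was thus not particular to Ckm, Ak1 and Ampd1. The share of Myh4 was lowest in libraries 2 and 3 (50.6% and 71.3%). Summed slow fibre levels, however, were highest in library 2 (4365 FPKM) and lowest in library 3 (1303 FPKM). The part of fibre types in these differences was not tested. Under median-of-ratios scaling, which moves log2 levels by -0.07 to 0.11, the highest library of Ak1 and of Ampd1 was library 4 in place of library 1, and the other 6 genes kept their highest library and all 8 their lowest.

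**Figure D2:**
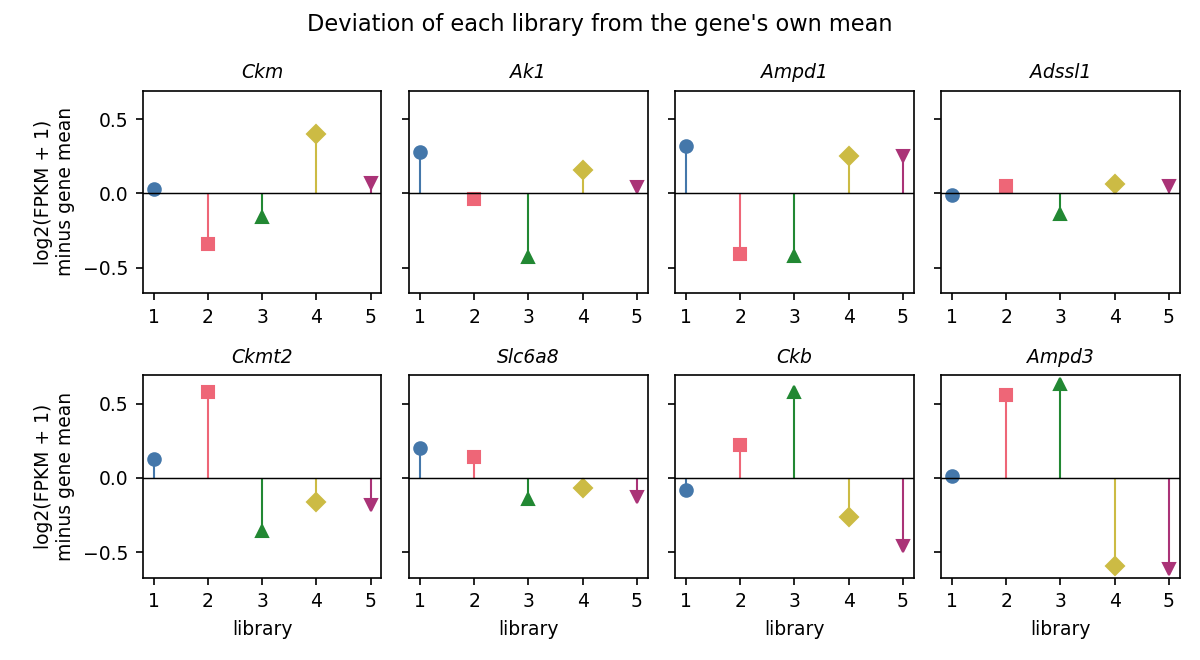
Deviation of each library from the mean of the gene in log2(FPKM + 1) (vertical axis) for libraries 1 to 5 (horizontal axis), 1 panel per gene. In libraries 2 and 3, Ckm, Ak1 and Ampd1 point down and Ckb and Ampd3 point up, and the bars of Adssl1 stay between -0.14 and 0.06.

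Within each library, the muscle isozyme outweighed its counterparts in every family. Ckm made up 92.1% ± 3.13 of the summed FPKM of the 4 creatine kinase genes (SD, n = 5), Ckmt2 7.64% ± 3.08, and Ckb 0.243% ± 0.107. The share of Ckmt2 was highest in library 2 at 12.9% and lowest in library 4 at 5.05%. Ckmt1, the mitochondrial form of other tissues, was at 0.0518 to 0.781 FPKM from 2 to 29 reads, under the floor of 3 reads in library 4. Ampd1 made up 97.0% ± 1.77 of the AMP deaminase FPKM and Ampd3 2.11% ± 1.44, from 0.885% in library 5 to 3.77% in library 3. Adssl1 made up 99.3% ± 0.108 of the adenylosuccinate synthase FPKM, the rest being the widely expressed Adss.

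Counting error was small beside these differences in share. Among the AMP deaminase reads, Ampd3 took 5.21% in library 3, with a 95% Wilson interval of 4.82% to 5.62%, and 1.24% in library 5, with an interval of 1.11% to 1.38%. Such intervals cover only counting error, because PCR copies of 1 molecule were not told apart. With merged exon lengths the share of Ckm was 85.3% and that of Ckmt2 14.4%.

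Ratios within a library hardly depend on its total. On the log2(FPKM + 1) scale, Ckm exceeded Ckb by 8.59 ± 0.63 (SD, n = 5), from 7.84 in library 3 to 9.24 in library 4. Ckm exceeded Ckmt2 by 3.67 ± 0.56, from 2.75 in library 2 to 4.23 in library 4, which in FPKM is a Ckmt2 level of 14.8% and 5.33% of that of Ckm. Ckmt2 exceeded Ckmt1 by 8.52 ± 0.28, with 1 FPKM added to a Ckmt1 level below 1 FPKM, and by 10.27 with 0.1 FPKM added instead. With merged exon lengths Ckm exceeded Ckmt2 by 2.63. These creatine kinase pairs kept their order in 5 of 5 libraries.

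Among the adenylate genes, Ampd1 exceeded Ampd3 by 5.56 ± 0.95 on the same scale (SD, n = 5), and the ratio was 4.59 and 4.51 in libraries 2 and 3 against 5.87 to 6.41 in the others. Adssl1 exceeded Adss by 6.90 ± 0.21. Of the muscle forms that work in turn in the purine nucleotide cycle, Ampd1 lay below Adssl1 by a log2 ratio of -1.16 ± 0.35, from -1.61 in library 2 to -0.82 in library 1. Slc6a8, which takes creatine up, lay above Gamt, which makes it, in 4 of 5 libraries, with a ratio of 0.34 ± 0.41 and of -0.19 in library 3.

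For each of the 6 pairs that kept their order, an exact sign-flip permutation test (two-sided) had p = 0.0625, or 0.0729 when adjusted over the 7 pairs by Benjamini-Hochberg, the smallest p that 5 samples allow. For Slc6a8 over Gamt the same exact test gave p = 0.125, which adjustment left at 0.125. No pair could therefore pass 0.05 in this design, whatever its size.

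**Figure D3:**
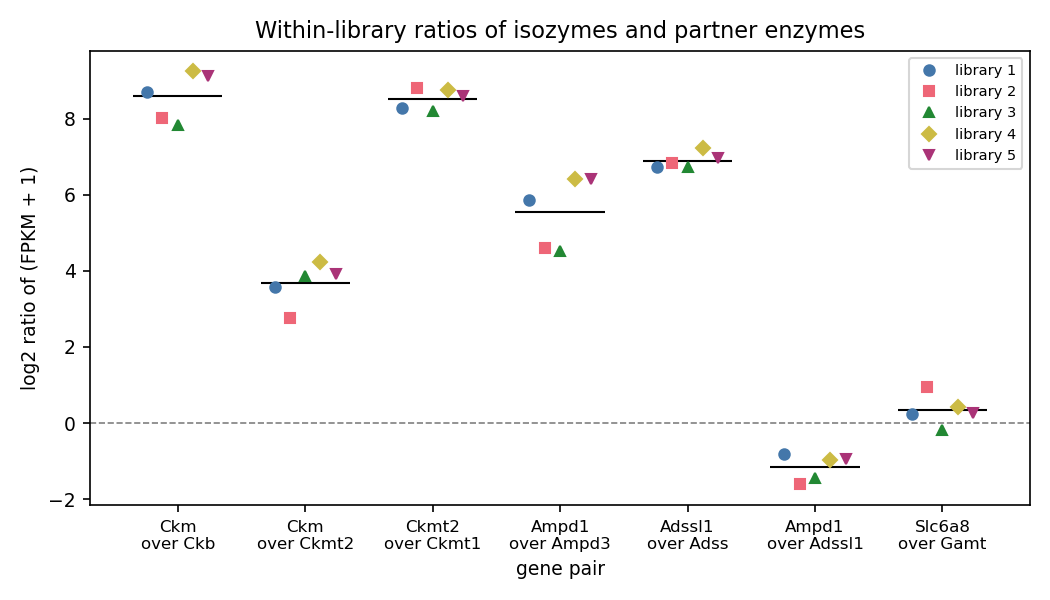
Log2 ratio of (FPKM + 1) for 7 gene pairs (vertical axis) in libraries 1 to 5 (coloured symbols), with the mean as a black bar and a dashed line at equal levels. The first 5 pairs lie above 2.7 in every library, Ampd1 over Adssl1 lies below 0 in all 5, and Slc6a8 over Gamt crosses 0 in library 3.

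All 8 genes varied between libraries by more than counting error, as did most genes of the table. In a chi-square test of reads with Benjamini-Hochberg adjustment over all genes tested, 8 of 8 passed 0.05, against 87.9% of the 10709 genes whose mean reached 1 FPKM. That share leaves little to be read from the count. The CV of the 8 genes had a median of 22.1%, against 16.3% over all genes tested.

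The spread of a gene was then set against that of genes of like abundance with limma. For Ampd3 the variance was 9.99 times the trend, higher than for 96.9% of 10710 genes, with an unadjusted p of 0.0243 and an adjusted p of 0.78 in limma's variance fit. Ckb stood at 5.06 times the trend (percentile 91.9), Ampd1 at 3.55 (87.8) and Ckmt2 at 3.08 (85.3). Ak1 and Ckm lay nearer the middle, at percentiles 67.7 and 53.4, and Slc6a8 at 39.4. Several of these places depended on the setting. Ckm was at 7.73 with all genes above 0 kept and at 68.7 with a mean of at least 10 FPKM. Ak1 was at 28.0 without library 3 and 80.5 without library 2, and Ckmt2 at 55.9 without library 2. With 1 library left out, Ampd3 stayed at 95.6 to 98.0, Ckb at 88.4 to 93.2 and Ampd1 at 84.6 to 90.9. Adssl1 was at 0.15 times the trend, percentile 4.38, which was 17.6 under median-of-ratios scaling (SD 0.15 in place of 0.08) and 0.495 without library 3 (SD 0.03). In limma 0 of the 8 genes passed an adjusted p of 0.05, as did 0 of all genes tested (0% called), and 616 genes (5.75%) had an unadjusted p under 0.05, with Ampd3 the member among them. With 5 libraries, only a very large excess could pass after adjustment over 10710 genes. The lack of calls therefore does not show that the spreads are alike.

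**Figure D4:**
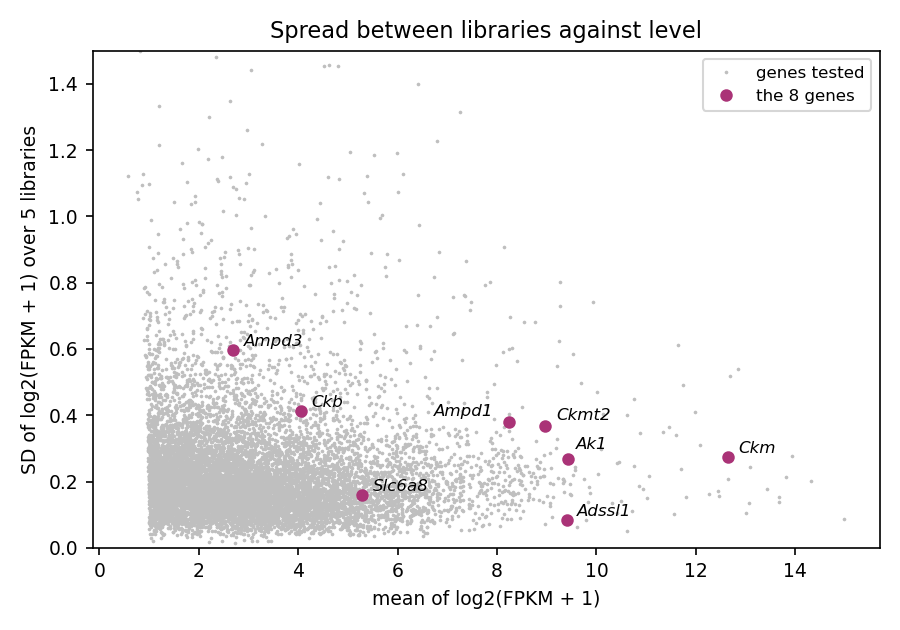
SD of log2(FPKM + 1) over 5 libraries (vertical axis) against the mean of log2(FPKM + 1) (horizontal axis) for 10710 genes (grey) and the 8 genes (purple); 9 genes lie above the axis top of 1.5. Ampd3 and Ckb lie in the upper part of the grey cloud at their level, and Adssl1 (SD 0.08) lies near its lower edge.

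Creatine is made in 2 steps, by Gatm and then Gamt, mostly in kidney, pancreas and liver. Gamt was measured at 30.6 ± 7.31 FPKM (SD, n = 5), close to the transporter gene Slc6a8. Gatm was at 3.18, 4.18, 11.9, 3.0 and 3.94 FPKM in libraries 1 to 5, with library 3 well above the others.

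Other adenylate kinases lay far below Ak1. The mitochondrial matrix forms Ak3 and Ak4 were at 20.4 ± 2.27 and 3.31 ± 1.02 FPKM and the nuclear Ak6 at 9.27 ± 1.86 FPKM (SD, n = 5). Of the purine cycle and salvage genes, Adsl, the lyase that completes the return from IMP to AMP, was at 39.5 ± 2.91 FPKM, the adenosine kinase gene Adk at 36.4 ± 7.82 FPKM and Impdh2, which leads IMP towards GMP, at 29.0 ± 3.62 FPKM. The spread of Adsl for its level was at percentile 15.2. Uox, the urate oxidase known from liver, was listed at 0 in all 5 libraries.

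Carriers that link the mitochondrial and cytosolic adenylate pools differed widely in level, with a mean of 40.7 FPKM for Slc25a5 and 0.0436 FPKM for Slc25a31. Slc25a25 of the same list ran from 3.39 FPKM in library 1 to 83.2 FPKM in library 5, a CV of 80.5%. Slc25a4, the ATP and ADP exchanger of muscle mitochondria, was at 1859.5, 2122, 1637, 2249 and 1943 FPKM in libraries 1 to 5, and the outer membrane channel genes Vdac1 and Vdac3 were at 724 ± 78.6 and 259 ± 19.7 FPKM (SD, n = 5). All 3 were lowest in library 3, as was Ckmt2, but of the 8 tested genes of this list 4 were lowest there and 3 highest, among the latter Vdac2 at 150.1 FPKM and Slc25a5, another ATP and ADP exchanger, at 79.6 FPKM against 26.8 to 34.2 FPKM. Among genes of the AMP-activated kinase, which senses AMP, Prkag3, the regulatory subunit of fast muscle, was at 95.5, 28.8, 48.2, 52.9 and 48.9 FPKM in libraries 1 to 5. Library 1 was highest and library 2 lowest. The beta subunit gene Prkab2 was at 50.1 ± 17.6 FPKM and the upstream kinase gene Stk11 at 50.7 ± 4.32 FPKM.

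Counted by list without the 8 genes, 2 of 2 tested genes of creatine synthesis and transport varied beyond counting error, as did 4 of 4 other adenylate kinases and AMP deaminases, 15 of 15 purine cycle, salvage and breakdown genes, 8 of 8 mitochondrial exchange genes and 8 of 9 AMP-activated kinase genes, against 87.9% of all genes. Their median CVs were 47.8%, 18.8%, 15.0%, 12.7% and 17.2%, against 16.3% over all genes tested. The first is the midpoint of Gamt (23.9%) and Gatm (71.7%), and without library 3 it was 19.0%. In limma none of these genes passed an adjusted p of 0.05. With 1 group there is no direction to count.

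For the 3 genes with the widest spread on the log2 scale, the genes with the nearest pattern were taken as those with the smallest root mean square difference between the 5 deviations from the mean, among 3802 other genes whose mean reached 10 FPKM. For Ampd3 these were Mid1ip1 (0.143), Adamtsl5 (0.149) and Atp1b1 (0.165), and Atp1b1, a subunit of the sodium-potassium pump, was at 99.1, 179, 144, 65.0 and 79.9 FPKM in libraries 1 to 5. For Ckb they were Pld3 (0.054), Tsc22d4 (0.073) and Dgat2 (0.079), the last an enzyme of triglyceride synthesis. For Ampd1 they were Mlf1 (0.041), Pdlim7 (0.075) and Hoxd8 (0.080), and Mlf1 was lowest in library 3 at 95.3 FPKM and highest in library 1 at 153 FPKM. The patterns rest on 5 libraries that differ in depth and in marker levels as given above, and are a description.

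Reads of related or overlapping genes bear on a few of these values. The longest run of identical bases between coding transcripts was 20 for Ckm and Ckb, 17 for Ckm and Ckmt2, 17 for Ampd1 and Ampd3, 17 for Adssl1 and Adss, and 39 for Ckmt2 and Ckmt1. Exons of Ckm, Ckmt2 and Ampd3 overlap those of genes on the opposite strand, over 451, 84 and (with a gene on its own strand included) 474 bases. No source used here gives the strand setting of the counting, so reads in these overlaps cannot be told apart. Their partners A930016O22Rik and 1700119I11Rik were at no more than 8.70 and 3.21 FPKM, far below Ckm and Ckmt2, while Rnf141, a partner of Ampd3, was at 4.65 to 6.16 FPKM, a level like that of Ampd3.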

How the data were processed

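Per the labels' protocols, poly-A RNA was taken with poly-T beads from about 20 mg of muscle. The build mm10 and the tools STAR 2.5, TopHat, HTSeq 0.6.1, edgeR and DESeq2 stand in the submitters' processing notes with no role; no source used here gives the annotation release or strand setting. The deposited table holds FPKM, which the authors scaled by gene length and library total. Library totals and reads per gene were recovered from the steps of the values (whole within 0.001 of a read for 20836 of 20840 genes above 0, summing to 98.28% to 98.60% of the totals). The depth is thus known within that limit; 5 of the 8 lengths found equal a transcript of GENCODE M21 (GRCm38), from which symbols (34490 of 35275 identifiers) and coordinates came.

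Genes whose mean reached 1 FPKM were fitted as log2(FPKM + 1) by limma 3.58.1 (R 4.3.3; intercept only; variance over its abundance trend, one-sided against F with 4 and 3.93 degrees of freedom; Benjamini-Hochberg), and their recovered reads were set against counting error by chi-square; both were tested on simulated data. The 7 pair ratios were tested by exact sign-flip permutation over 32 sign patterns; 1 gene of the lists and its pair are not reported here. The genes, pairs, 5 pathway lists and 11 marker lists were chosen with earlier results of these data known. Named genes are the 8, both genes of each pair and the 3 most abundant other genes of each pathway list. The 3 nearest patterns of the 3 most variable were named too. Uox, Vdac2, Slc25a5, Slc25a25, Slc25a31 and genes overlapping the 8 were named later, knowing their values. Alternatives changed the pseudocount (0.1), the filter, the scaling, the gene length and each library (or 2 and 3 together) left out. Python 3.11.15, numpy 2.4.6, pandas 2.3.3, scipy 1.17.1 and matplotlib 3.10.9 were used.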

Additional observations from a re-analysis of the deposited data

Results flagged for a closer look

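Of 37 quantities checked, 1 had a library whose gap to the nearest other, as a share of the range, exceeded Dixon's 95% critical value, and chance alone gives about 1 in 20. The check left out some values given above that also lie far out in library 3. Among them are Slc25a5, at 79.6 FPKM against 26.8 to 34.2 FPKM, and the summed macrophage markers, at 359 FPKM against at most 121 FPKM. The count therefore does not describe library 3 as a whole. Gatm, the first enzyme of creatine synthesis, was at 11.9 FPKM in library 3 against 3.0 to 4.18 FPKM in the others. Macrophage, smooth muscle and adipocyte markers were also highest in that library, and their part in this value was not tested.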

How the results depend on the processing

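The 7 pair ratios kept their direction under every alternative run (pseudocount 0.1, median-of-ratios scaling, merged exon lengths and each library left out). With 1 library left out, they ranged from 8.42 to 8.77 for Ckm over Ckb, 3.53 to 3.90 for Ckm over Ckmt2 (2.63 with merged exon lengths), 5.34 to 5.82 for Ampd1 over Ampd3, -1.24 to -1.04 for Ampd1 over Adssl1 and 0.19 to 0.47 for Slc6a8 over Gamt, and the mean share of Ckm from 91.4% to 93.4%. Merged exon lengths moved the shares of Ckm to 85.3%, of Ckmt2 to 14.4% and of Adssl1 to 99.5%, and counting reads without length moved that of Adssl1 to 99.0%. The number of genes called by limma, 0, was 0 under the other settings and 0 to 5 with 1 library left out (5 without library 3), and the chi-square test of counting error called 9414. No paired analysis was possible because there is 1 group. Low reads limit Ckmt1 most, and Ckb and Ampd3 rest on 321 to 647 reads per library, against 2275 or more for the other 6.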
